A study of Mus musculus with 4 samples.

Results

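The mesenchymal cells described here were chosen by their own transcripts. A retained cell of the E9.5 or the E10.5 library was a member if it held at least 2 UMIs (distinct captured transcripts) of Prrx1 and at least 1 of Twist1, and none of Lhx2, Foxf1, Hand1 or Cdh5. The rule kept 331 of 4052 retained cells at E9.5 and 1200 of 8042 in the E10.5 library, which is 1531 of the 12094 retained cells of both libraries and of 22625 in the whole series. Both libraries came from Swiss Webster embryos of genotype Mesp1Cre;Rosa26-GFPflox/+, and both covered the pharyngeal apparatus and the heart. Cre made from Mesp1, a gene of nascent mesoderm, switches on GFP in a cell and all of its descendants, and GFP-positive DAPI-negative (living) cells were sorted from pooled embryos. The other 2 libraries (E8.0 and E8.25) were taken from the upper part of the body. No other genotype or treatment was used, and each stage had 1 library. Differences therefore had no replicate check, and every interval below is an exact 95% interval that covers counting error only.

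Prrx1 and Prrx2 are homeodomain factors of mesenchyme, and Twist1 is a basic helix-loop-helix factor that keeps mesenchyme undifferentiated. Alx1 and Alx4 are related homeodomain factors best known from the mesenchyme of the face. Hox genes mark position along the body: mesenchyme of the face and the first pharyngeal arch lacks their transcripts, and higher paralog numbers mark levels further back. In the head, mesenchyme comes from both mesoderm and neural crest, and only the former descends from Mesp1-expressing cells.

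The members had a median of 19596 UMIs and 4249 genes per cell at E9.5, and 15295 UMIs and 3786 genes at E10.5. Their summed counts, 6847282 and 20003657 UMIs, were the base of each level, given below in CPM (UMIs per 1000000 UMIs of the sum). A sum of 0 allowed a level of up to 0.438 CPM at E9.5 and 0.150 a day later (3 UMIs). The late libraries shared 41 barcodes, none of them between members. Haemoglobin transcripts made up 0.000905% of the members' UMIs at E9.5 and 1.67% in the E10.5 library, against 0.0373% and 11.7% in the other cells. At E10.5 all 1200 members, and all 360 endothelial cells (at least 1 UMI each of Cdh5 and Pecam1), held a UMI of the embryonic globin gene Hbb-y, and 18 members held 10% or more haemoglobin UMIs.

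The share of members was 8.17% (7.34 to 9.05) at E9.5 and 14.9% (14.1 to 15.7) a day later. The log2 ratio of these shares was 0.87, and it was 1.41 when each cell was first thinned to 8000 UMIs. Cells on either side of the Prrx1 limit are given for description only. At E9.5, 60 cells with exactly 1 Prrx1 UMI and the rest of the rule met had 65.1 CPM of Alx1, and 57 members with exactly 2 had 70.2. At E10.5 the values were 46.4 CPM in 329 cells and 72.4 CPM in 266. The 4 excluded genes set aside 215 of 546 cells at E9.5 and 464 of 1664 in the E10.5 library that met both Prrx1 and Twist1 limits.

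The label given to these cells is cranial mesenchyme, with Prrx1, Prrx2, Twist1 and Alx1 as its markers. Prrx1 (chr1:163245119-163315145 in mm10, placed by RefSeq GRCm38.p6) and Twist1 (chr12:33957671-33959831) chose the cells, and their levels are a description. Prrx1 stood at 266 (254 to 278) CPM at E9.5 and 328 (320.0 to 336) a day later. Twist1 stood at 83.97 (77.3 to 91.1) and 184 (178 to 190.1) CPM. Prrx2 (chr2:30845064-30881251) and Alx1 (chr10:103007847-103029549) were not used by the rule. Prrx2 had 421 (406 to 437) CPM in members and 270.0 in the other cells at E9.5, and 214 (208 to 221) and 98.3 at E10.5. Alx1 had 89.96 (83.00 to 97.4) CPM in members and 28.8 in other cells at E9.5, and 79.9 (76.02 to 83.9) and 23.4 at E10.5. After each cell was thinned to 8000 UMIs, Alx1 was detected in 41.5% (36.1 to 47.1) of 325 members at E9.5 and 35.9% (33.1 to 38.8) of 1125 in the E10.5 library. The unthinned shares were 72.2% of 331 and 47.3% of 1200. Endothelial cells, which should lack Alx1, held it in 0.658% (0.0167 to 3.61) and 2.37% (1.03 to 4.62) at the same depth, so the share in members was above background.

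Members as a whole held Hox transcripts, which mesenchyme of the face and first arch lacks. The levels were uneven between the subgroups described below. Summed over groups 4 and 5, they ran from 30.9 to 622 CPM at E9.5 and from 16.1 to 626 at E10.5. The 11 Hox genes of paralog groups 1 to 4 summed to 454 CPM in members at E9.5 and 390.3 a day later, above the 259 and 204 CPM of the other cells. Hoxb4 stood at 101 and 94.5 CPM, and Hoxa5 at 48.3 and 62.3. Of the genes in groups 6 to 8, Hoxb6 had the most UMIs, with 0.292 and 1.15 CPM. The 13 listed genes of groups 9 to 13 summed to 0 CPM at E9.5 and 0.650 CPM in the E10.5 library. Sox10 and Foxd3, from the list of 12 neural crest genes, had no UMI in members at E9.5, and 5 and 1 UMIs a day later. The whole list summed to 16.9 CPM in members against 27.9 in other cells at E9.5, and 69.4 against 57.2 at E10.5. A neural crest origin of some members was not tested. Because of these Hox levels, the cells are called Prrx1/Twist1 cells below, without a place in the head or outside it.

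Compared with all other retained cells of the same library, the Prrx1/Twist1 cells carried more transcripts of Alx1 and Alx4, of some Hox genes (4 of 11 in groups 1 to 4), of Crabp1 and Cyp26a1 and of Sema3a and Epha3, and fewer of heart muscle, endothelial and blood genes. These are differences between summed levels. After thinning to 8000 UMIs, Alx4 was detected in 6.15% and 6.84% of members at E9.5 and E10.5, and Cyp26a1 in 14.5% and 12.3%. A gene was called where its level differed at least 2-fold, in the same direction in both libraries, with each interval excluding 0. Of 12824 genes, 96 were higher (0.749%) and 611 lower (4.76%). With each cell thinned to 8000 UMIs first, 43 were higher and 284 lower. The median log2 ratio over all genes was -0.06 at E9.5 and 0.17 a day later. The genes that follow were chosen by the size of the smaller of both ratios or by the lists named, and the rule's own 6 genes were left out. Since cells were chosen by co-detected transcripts, genes that accompany Prrx1 had to be raised. Genes that accompany Lhx2, Foxf1, Hand1 or Cdh5 had to be lowered, and no test is attached to either.

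Alx4, a homeodomain factor, had 7.45 CPM against 1.68 at E9.5 and 9.55 against 1.79 in the E10.5 library, log2 ratios of 2.15 (1.65 to 2.64) and 2.42 (2.13 to 2.71). Of the 16 genes listed for cranial mesenchyme, 3 were called higher, Alx1 and Alx4 among them, and none lower. Foxc1, Foxc2 and Eya1, which act in head mesoderm, were not called.

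Among Hox genes, Hoxb3, Hoxd3, Hoxc4 and Hoxd4 were called higher of the 11 in groups 1 to 4, and Hoxc5 of the 4 tested in groups 5 to 8, where Hoxb6 was lower. Hoxd4 (chr2:74721978-74729160) had 40.02 CPM against 5.94 at E9.5 and 28.2 against 5.05 a day later, ratios of 2.75 (2.53 to 2.98) and 2.48 (2.32 to 2.65). Hoxc4 (chr15:103018097-103036856) had ratios of 1.79 (1.59 to 1.99) and 2.64 (2.51 to 2.77). In contrast, Hoxb4 and Hoxb2, also detected widely outside the members, had ratios between 0.40 and 0.47 at both stages and were not called. Meis2, a cofactor that binds DNA with Hox proteins, was called at 1.01 and 1.08. Its level in members was 459 and 527 CPM.

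Of 14 tested genes of retinoic acid metabolism and response, 3 were higher and 1 lower. Crabp1, which binds retinoic acid in the cytoplasm, had 367 CPM against 129.9 at E9.5 and 729 against 137 in the E10.5 library, ratios of 1.497 (1.43 to 1.56) and 2.41 (2.38 to 2.44). Cyp26a1, which degrades retinoic acid, had 21.8 against 8.35 and 50.5 against 8.39 CPM. At E10.5 it stood at 5.62 CPM in members with an Alx1 UMI, below the other cells, and at 96.8 in members without. Rarg, a receptor, had ratios of 1.45 and 1.47, and the lower gene was the reductase Dhrs3 at -1.66 and -1.002. Aldh1a2, which makes retinoic acid, was not called, with 37.2 CPM against 41.8 at E9.5.

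Of 20 guidance and chemokine genes, the repellent Sema3a and the receptor Epha3 were higher and Sema3d lower, and the list's median log2 ratio was -0.15 and 0.46 in the E9.5 and E10.5 libraries. Sema3a had 43.8 CPM against 15.3 at E9.5 and 45.9 against 15.6 a day later. Gas1, a hedgehog co-receptor, had 226 against 89.96 and 324 against 111 CPM, whereas the pathway's target Hhip was called lower (-2.08 and -2.14), as was Foxl1. Ptch1, another target, had ratios of -1.98 and -0.71 and was not called. Dlk1, an imprinted growth regulator, had 1193 CPM against 452 at E9.5 and 439 against 148 in the E10.5 library. Other genes in the leading 15 were Serpinf1, Lix1, Ppp2r2b and Kctd12, with log2 ratios from 1.24 to 1.83. Of the somatic lateral plate and limb genes, Tbx3, Irx3 and Lmx1b were higher and Tbx5 was lower, at 10.2 CPM against 37.9 and 12.2 against 29.1.

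All 8 cardiomyocyte genes, 7 of 8 endothelial genes and all 8 erythroid genes were lower in the Prrx1/Twist1 cells. So were 7 of 8 macrophage genes. Because the rule excluded cells with Cdh5 or Foxf1, the lower endothelial and splanchnic genes follow in part from the rule. Myl7, an atrial myosin light chain, had 73.9 CPM against 1575 at E9.5 and 70.9 against 491 a day later. When haemoglobin-rich, Cdh5-positive and Tnnt2-rich cells were left out of the other cells, 53 genes were higher and 339 lower. The ratios of Actc1, Tnnt2, Myl4 and Acta2 then turned positive in at least 1 library. Members were not filtered on Tnnt2, so these changes of sign follow in part from the filter. Of 9 splanchnic mesoderm genes, 5 were lower (Osr1, Gata4, Gata5, Isl1 and Nkx2-5) and none higher. Osr1 had 13.1 CPM against 66.9 and 23.8 against 71.2. Of 32 extracellular matrix genes only Dcn was called, as lower.

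**Figure D1:**
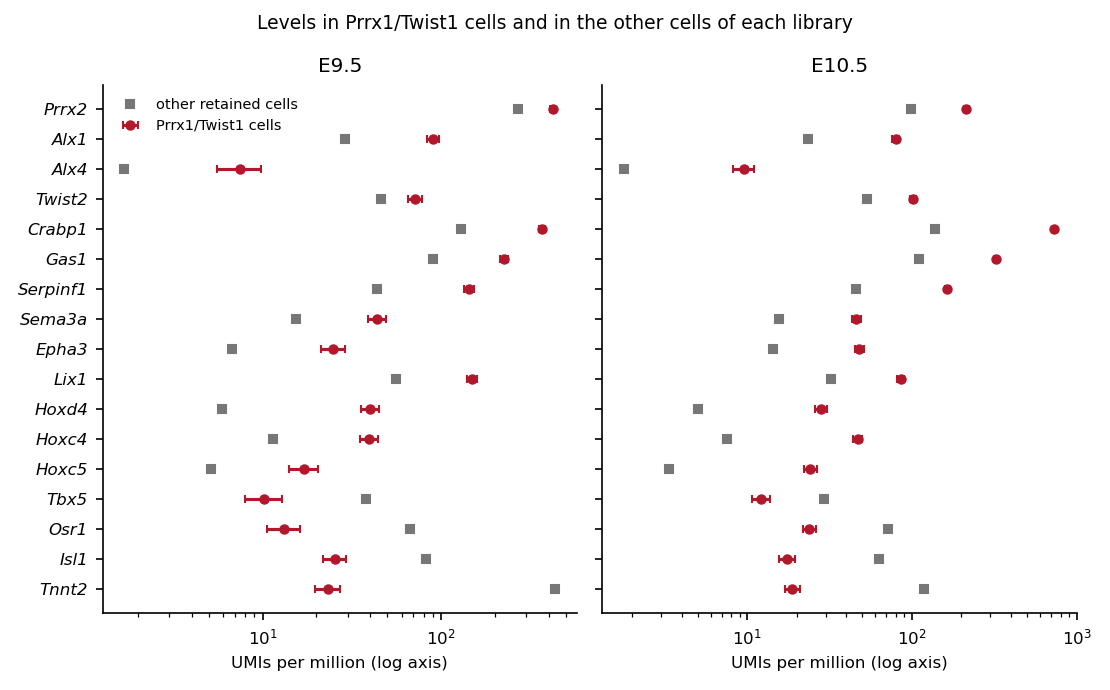
Levels of 17 genes in CPM (log axis) at E9.5 (left) and E10.5 (right), in the Prrx1/Twist1 cells (red, with exact 95% Poisson intervals) and in all other retained cells of the library (grey squares). Hoxd4 lies at 40.02 against 5.94 and 28.2 against 5.05, while Tnnt2, Isl1, Osr1 and Tbx5 lie below the other cells.

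The nearest cells were those that met the Prrx1 and Twist1 limits but held a UMI of an excluded gene. Against 73 and 325 cells with Foxf1, a forkhead factor of gut and lung mesenchyme, 11 of 12940 genes (0.085%) were higher in the Prrx1/Twist1 cells at both stages and 80 (0.618%) lower. Hoxc4 and Hoxd4 were among the higher genes, and Osr1, Foxf2, Tcf21, Msc and Tbx5 among the lower. Hoxd4 had 40.02 CPM against 13.8 at E9.5 and 28.2 against 12.8 in the E10.5 library, log2 ratios of 1.54 (0.96 to 2.18) and 1.14 (0.81 to 1.48). Osr1 had 13.1 against 57.2 and 23.8 against 120.4 CPM.

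Against 129 and 107 cells with Hand1, a factor of heart and ventral body wall, 33 of 12728 genes (0.259%) were higher and 153 (1.2%) lower. Without the cells of highest Scrublet score, 62 were higher. Hoxd4, Hoxa5, Tbx1, Ebf1 and Foxd1 were higher and Tbx5, Gata4 and Gata6 lower. Tbx1, which acts in pharyngeal mesoderm, had 61.6 CPM against 16.7 at E9.5 and 89.8 against 40.9 a day later. Alx1 was not called, at 89.96 against 97.9 and 79.9 against 78.3 CPM, with log2 ratios of -0.12 (-0.32 to 0.08) and 0.03 (-0.19 to 0.26). Against 47 and 50 cells with Lhx2, a factor of branchiomeric muscle progenitors, 12 of 12618 genes (0.0951%) were higher and 72 (0.571%) lower. Alx1 was higher, with ratios of 1.20 (0.80 to 1.62) and 1.12 (0.70 to 1.58), and Isl1, Tcf21, Msc, Ebf1 and Fgf10 lower. All of these comparisons share the member cells, and genes that accompany the excluded gene had to be lower in members.

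At E10.5, 316 cells outside the rule held both Moxd1 and Shox2, against 9 at E9.5, which were too few to compare. Alx1 stood at 79.9 CPM in the Prrx1/Twist1 cells and 21.3 in these cells, and Hoxc5 at 24.2 and 2.43. Hoxb4 was higher outside, at 94.5 and 140.2 CPM. Isl1 and Tcf21 were lower in the Prrx1/Twist1 cells, with 17.5 against 146 and 33.4 against 153 CPM. In this library alone, 394 of 12538 genes (3.14%) were higher in the Prrx1/Twist1 cells and 481 (3.84%) lower. Among the members themselves, 32 held both Moxd1 and Shox2 at E10.5.

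The Prrx1/Twist1 cells were not 1 kind of cell, and Alx1 went with the Hox genes within them. Members were divided by whether they held an Alx1 UMI, a division made after the values had been seen. There were 239 cells with and 92 without at E9.5, and 568 and 632 at E10.5. Median UMIs per cell were 20623 and 16609 at E9.5, and 16548 and 13974 at E10.5, so the cells with Alx1 were the deeper ones. Of 12453 genes, 25 (0.201%) were higher at both stages in cells with Alx1 and 138 (1.11%) lower. With each cell thinned to 8000 UMIs first, 3 genes were higher and 18 lower.

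Hoxc4, Hoxb4, Hoxb1 and Hoxc5 were called higher with Alx1, and no listed Hox gene lower. Hoxc5 (chr15:103014008-103017429) had 20.7 CPM with and 5.09 without Alx1 at E9.5, and 39.5 and 8.52 at E10.5, log2 ratios of 2.02 (0.99 to 3.27) and 2.21 (1.87 to 2.57). Hoxa5 had 54.4 and 27.97, and 90.98 and 32.8 CPM. Hoxa2, of a paralog group active in the second arch, went the other way, with 26.4 and 39.4 CPM at E9.5 and 46.1 and 66.8 in the E10.5 library, within 2-fold. The same held cell by cell at equal depth. Of cells thinned to 8000 UMIs, a UMI of any of the 7 Hox genes of groups 4 and 5 was found in 80.1% (72.9 to 86.2) of 151 with an Alx1 UMI and in 51.1% (43.5 to 58.8) of 174 without at E9.5. At E10.5 the shares were 88.5% (84.9 to 91.5) of 384 and 49.1% (45.5 to 52.8) of 741. For cells with and without an Ebf1 UMI the order was the opposite, with 32.6% (27.8 to 37.7) and 76.6% (73.5 to 79.6) at E10.5.

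Alx4, Msx1 and Tbx3 were also higher with Alx1. Msx1 had 61.4 CPM with and 22.3 without at E9.5, and 87.3 and 43.4 at E10.5. The other named genes on this side were Lix1, Epha3, the ligands Wnt2 and Fgf5, the matrix protein Tnc, Ccbe1, Amica1 and Ifi204. Wnt2 had 129 and 38.1 CPM at E9.5 and 34.3 and 12.7 a day later. Of the genes listed for cranial mesenchyme, 6 of the 15 tested were lower with Alx1, among them Foxc1, Foxc2, Foxd1, Six2 and Cyp26c1, beside 3 higher. Hence the listed markers fell on opposite sides of the division. Foxd1 had 2.46 CPM with and 13.4 without Alx1 at E9.5, and 14.1 and 85.5 at E10.5.

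Cells without an Alx1 UMI carried more of the transcription factor Ebf1, of the matrix proteoglycan Lum, and of the activin antagonist Fst. Ebf1 had 132 CPM without and 7.58 with Alx1 at E9.5, and 121 and 22.3 at E10.5, log2 ratios of cells with to cells without of -4.12 (-4.64 to -3.62) and -2.44 (-2.65 to -2.23). Lum had 87.1 and 3.79, and 35.2 and 5.32 CPM. The cartilage factor Sox9 and the cartilage collagens Col2a1 and Col9a1 were on the same side, 3 of the 12 tested cartilage, bone and tendon genes. Col9a1 had 142 CPM without and 29.8 with Alx1 at E10.5. Meox1, Tcf15 and Pax9, factors of somites and their derivatives, were lower with Alx1 as well. Pax9 had 10.7 and 1.48 CPM at E10.5. The chemokine Cxcl12 had 173 against 30.7 CPM at E9.5 and 132 against 43.9 in the E10.5 library.

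**Figure D2:**
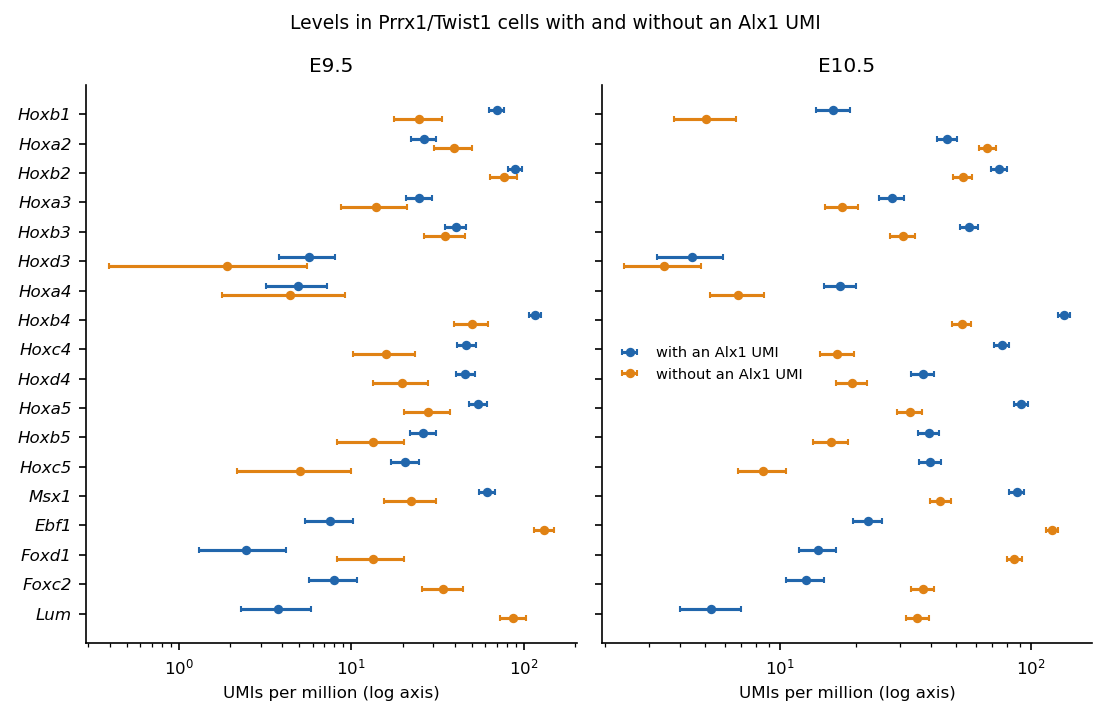
Levels of 18 genes in CPM (log axis) at E9.5 (left) and E10.5 (right) in Prrx1/Twist1 cells with (blue) and without (orange) an Alx1 UMI, with exact 95% Poisson intervals. Hox genes of groups 4 and 5 and Msx1 lie to the right in cells with Alx1, and Ebf1, Foxd1, Foxc2 and Lum in cells without. The exception is Hoxa4 at E9.5, at 4.93 and 4.45 with overlapping intervals.

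Each library's members were clustered on their own, without the rule genes and without mitochondrial, ribosomal protein and cell cycle genes, into 8 subgroups at E9.5 and 15 a day later. Resolutions of 0.5 and 2 gave 4 and 15 at E9.5, and 8 and 26 at E10.5. The subgroups are numbered by size and named by their leading genes, and every value that follows describes the cells that were clustered. At E9.5, 7 subgroups with 281 cells had Alx1 between 70.6 and 123 CPM, and 1 subgroup stood apart. At E10.5, 8 subgroups with 725 cells had Alx1 between 83.9 and 160.0 CPM, 6 with 457 cells between 0 and 22.1, and subgroup 15, with 18 cells, was led by haemoglobin genes.

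The subgroup that stood apart at E9.5 (subgroup 2, 50 cells) was led by Fst, Ebf1, Lum and Cxcl12. It had 4.42 CPM of Alx1, 674 of Prrx2 and 30.9 summed over the Hox genes of groups 4 and 5. Ebf1 stood at 224 CPM there and 7.40 in the remaining members. The Hox genes peaked in subgroup 7 (31 cells), which was led by Hoxc5, Alcam, Shisa3 and Hoxc4 and had 622 CPM over groups 4 and 5 and 101 of Alx1. Subgroup 1 (68 cells) was led by the retinoic acid synthase Aldh1a2, Emx2 and Epha7, with 488 CPM of the same Hox genes. Subgroup 3 (46 cells) was led by genes that included Isl1 and Nkx2-6 and had a low Hox sum, 69.6 CPM, with Alx1 at 70.6. Subgroup 4 (40 cells) was led by Rdh10 and Meox1, and subgroup 5 (37 cells) by Mpped2, Ppp2r2b and the Wnt antagonist Dkk1. The leading genes of subgroup 5 also held Xist, at 571 CPM against 180 in the remaining members. A link to embryo sex was not tested. Subgroup 8 (25 cells) was led by Myl2, Myl4 and Tnnt2, and its cardiomyocyte genes summed to 1427 CPM against 321 over all members.

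At E10.5 the subgroups with little Alx1 had distinct leading genes. Subgroups 4 and 5 (the first with 107 cells) shared Foxd1, Lum and Sostdc1, with Foxd1 at 287 and 236 CPM. They differed in cycling, as G2/M genes summed to 879 CPM in the first and 4932 in the second, although those genes were kept out of the clustering. Subgroup 6 (103 cells) was led by Tcf15, Cyp26a1 and Lbx1, the last of which marks migrating limb and tongue muscle precursors. Subgroup 10 (63 cells) was led by Lrrn1, Shox2, Isl1 and Celf2 and kept a Hox sum of 325 CPM with Alx1 at 22.1. Subgroup 14 (20 cells), led by Pdlim3, Hapln1 and Tbx20, had no Alx1 UMI and a Hox sum of 16.1 CPM. Its leading genes include Postn, a matrix protein of heart valves.

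Subgroup 12 at E10.5 (59 cells) was led by Dlx5, Barx1, Dlx2, Dlx1 and Dlx6, homeodomain genes of the mesenchyme of the pharyngeal arches. Dlx5 stood at 200.1 CPM in it and 0.904 in the remaining members, and Alx1 at 16.7 CPM. Its Hox sum over groups 4 and 5 was 117 CPM. At E9.5 the members together held 1 UMI of Dlx5 and 1 of Dlx2, and no subgroup led by Dlx genes was found. In thinned cells Dlx5 was detected in 3.73% (2.70 to 5.01) of members at E10.5 and 0.297% (0.00751 to 1.64) of endothelial cells. The 12 genes listed for neural crest summed to 524 CPM in this subgroup and 69.4 over all members at that stage. That list holds Dlx5, Dlx2, Dlx1, Dlx6 and Dlx3, at 200.1, 139, 61.1, 58.6 and 33.5 CPM in the subgroup. These genes also lead the subgroup, so the sum mostly repeats them and is no separate support.

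Among the subgroups with Alx1 at E10.5, 2 and 7 (135 and 86 cells) were led by Msx2, Hoxc5, Hoxc4 and Gal and had the highest Hox sums, 595 and 626 CPM. Subgroup 8 (85 cells) was led by Flt1 and Emx2, and subgroup 9 (71 cells) by Alcam, Fgf5 and Igfbp3, with sums of 579 and 526 CPM. Subgroup 1 (135 cells) had Alx1 at 103 CPM with the lowest Hox sum on this side, 143. Its leading genes held Pf4, Prtn3 and Mpo, which belong to platelets and granulocytes, beside Tlx1, Col9a2 and Isl1. Subgroup 11 (61 cells) was led by Acta2, Actc1 and Tagln, with cardiomyocyte genes at 2266 CPM against 257 over all members. Subgroup 13 (45 cells) was led by the mesothelial genes Upk3b and Krt18. In subgroup 15 the 8 erythroid genes summed to 308017 CPM, and the median cell held 44246 UMIs, 289% of the median over members. Whether droplets held more than 1 cell in subgroups 11 and 15 and in subgroup 8 at E9.5 was not tested one by one. Removal of the highest Scrublet scores took 5 members at E9.5 and 89 in the E10.5 library.

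**Figure D3:**
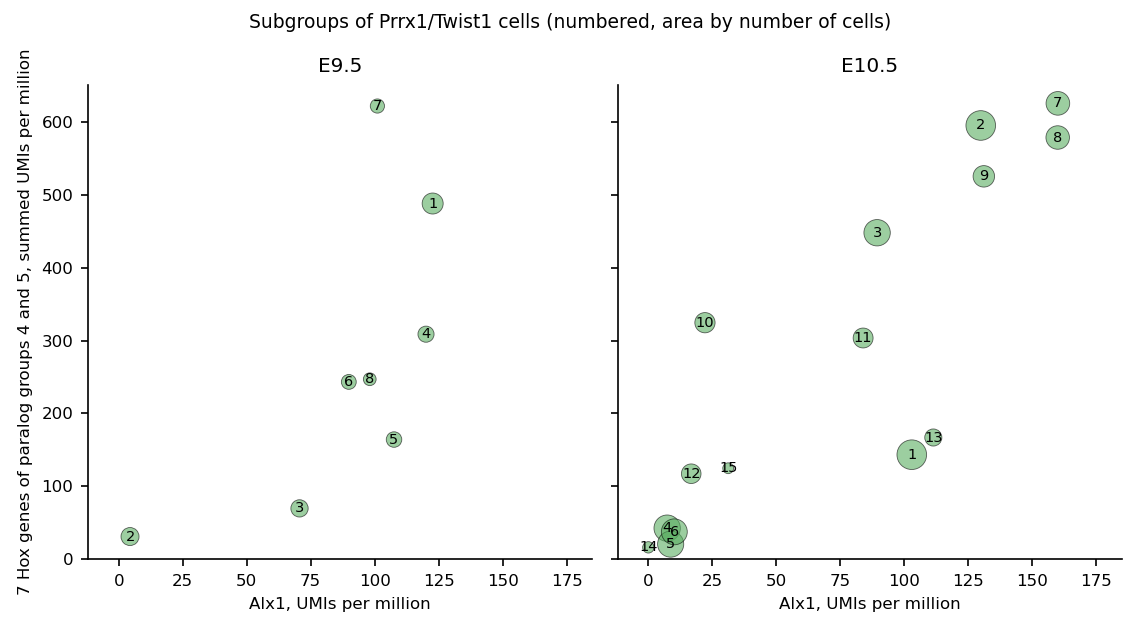
Each circle is 1 subgroup of Prrx1/Twist1 cells at E9.5 (left, 8 subgroups) or E10.5 (right, 15), placed by its level of Alx1 and by the summed level of 7 Hox genes of groups 4 and 5 (CPM), with area proportional to its number of cells. Subgroup 2 at E9.5 lies at 4.42 and 30.9, and subgroup 10 at E10.5 is the circle with little Alx1 and a Hox sum of 325.

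From E9.5 to E10.5 the Prrx1/Twist1 cells held more transcripts of Col1a1, Col1a2, Col3a1 and other matrix genes (14 of 32), of Nfi factors and of Rspo3, and fewer of Lin28a, Lin28b, Hoxb1 and Dlk1. Of 12456 genes with at least 20 UMIs, 1275 (10.2%) were at least 2-fold higher at E10.5 with an interval excluding 0, and 247 (1.98%) lower. Thinning each cell to 8000 UMIs left 669 higher. The median log2 ratio over all genes was 0.06. The 2 libraries also differ in the mix of subgroups, so a difference can lie in the share of cells or in the level per cell. Values are therefore also given within cells with and without an Alx1 UMI. Stage and library cannot be told apart.

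Of 32 extracellular matrix genes, 14 were higher at E10.5 and none lower, with a median log2 ratio of 0.78. Col1a2, a chain of type I collagen, rose from 45.6 to 183 CPM, a log2 ratio of 2.002 (1.83 to 2.17). It rose in cells with Alx1 by 1.85 (1.66 to 2.05) and in cells without by 2.30 (1.94 to 2.69) on the log2 scale. Col3a1 rose from 109 to 279.5 CPM and Col1a1 from 42.1 to 92.7. Fbln5, an elastic fibre protein, went from 1.75 to 11.5 CPM. Fn1, present early in mesenchyme, was not called, with 132 and 142 CPM. Of 12 cartilage, bone and tendon genes, 5 were higher, among them Col2a1 (21.8 to 80.8 CPM), Runx2 (0.876 to 8.55), the bone master factor, and the tendon factor Scx (3.80 to 20.1). Runx2 rose in cells with Alx1 by 3.86 (2.61 to 5.51) on the log2 scale, and had a ratio of 2.31 (-0.28 to 7.66) in cells without, which did not exclude 0.

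Of 14 developmental timing genes, 4 were higher and 4 lower. Lin28a, which blocks maturation of the let-7 microRNA, fell from 43.2 (38.4 to 48.4) to 7.85 (6.67 to 9.18) CPM, with a log2 ratio of -2.46 (-2.75 to -2.18). It was lower within both groups, at -2.72 (-3.14 to -2.32) with Alx1 and -2.31 (-2.77 to -1.85) without. Lin28b, Trim71 and Dlk1 fell too, Dlk1 from 1193 to 439 CPM. In the other direction Nfia, Nfib and Nfic rose, and Nfix was called higher on few UMIs. Nfix had 0 UMIs at E9.5, and at E10.5 it had 7 in cells with Alx1 and 13 in cells without. It met the count minimum only through E10.5 and was called in neither Alx1 group. Nfia went from 5.55 to 30.7 CPM, a ratio of 2.47 (1.99 to 2.98), and Nfib from 15.8 to 63.4. Lin28a moved in the other cells of the libraries as well, from 39.1 to 6.32 CPM, and Nfia from 12.3 to 23.2.

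Most Hox genes were not called between the stages. Hoxb1 fell from 59.6 (53.9 to 65.7) to 10.7 (9.36 to 12.3) CPM, with a log2 ratio of -2.47 (-2.72 to -2.23), and 2 of the 11 genes of groups 1 to 4 were called lower. Hoxa4 rose by 1.33 (0.81 to 1.90) from 4.82 CPM, and 8 were not called. The ratio of Hoxa4 was 1.82 (1.22 to 2.47) in cells with Alx1 and 0.61 (-0.51 to 1.98) in cells without. Hoxa2 and Hoxb2, of 1 paralog group, had ratios of 0.94 (0.72 to 1.16) and -0.44 (-0.58 to -0.29). Hoxa5, Hoxb5 and Hoxc5 had ratios between 0.25 and 0.50 over all members. In cells with Alx1 their ratios were 0.74, 0.58 and 0.94, under 2-fold with each interval excluding 0. In cells without, they were 0.23, 0.25 and 0.74, with each interval including 0. Of the label genes other than those of the rule, neither was called. Alx1 had a ratio of -0.17 (-0.31 to -0.03) and Prrx2 of -0.97 (-1.04 to -0.90). Within cells without Alx1, Prrx2 went from 548 to 189 CPM, a ratio of -1.54 (-1.65 to -1.42), and within cells with Alx1 from 383 to 239, a ratio of -0.68 (-0.77 to -0.59). Twist1, a rule gene, differed by 1.13 (1.005 to 1.26).

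Cyp26a1, of the retinoic acid list, had stage ratios of opposite sign in cells with and without Alx1, a difference that was not tested. It went from 21.8 to 50.5 CPM over all members. In cells with Alx1 it fell from 18.01 to 5.62 CPM, a ratio of -1.68 (-2.18 to -1.19). In cells without, it rose from 34.3 to 96.8, a ratio of 1.495 (1.10 to 1.92), and at E10.5 it led subgroups 5 and 6. The 2 intervals do not overlap, but each rests on 1 library a stage. Crabp1 rose in both groups, by 1.11 (1.04 to 1.18) and 1.21 (1.06 to 1.36). Aldh1a2 fell from 37.2 to 15.5 CPM over all members, with ratios of -1.11 (-1.38 to -0.83) and -0.43 (-1.11 to 0.30).

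Of 19 Wnt pathway genes, 7 were higher and none lower. Rspo3, a Wnt enhancer, rose from 4.53 to 53.8 CPM, a ratio of 3.57 (3.06 to 4.14), with 4.16 (3.40 to 5.05) in cells with Alx1 and 2.48 (1.79 to 3.27) in cells without. Wnt5a rose from 51.8 to 117 CPM over all members, and by 1.47 (1.28 to 1.65) in cells with Alx1, while its ratio of 0.87 (0.52 to 1.23) in cells without was under 2-fold. Of 19 guidance genes 6 were higher, among them Epha4 (27.02 to 70.4 CPM) and Slit2 (7.16 to 24.6). Epha4 had ratios of 1.77 (1.52 to 2.04) with and 0.80 (0.35 to 1.28) without Alx1, the second under 2-fold. In the cranial mesenchyme list, 5 of 16 were higher, among them Foxd1, Six2, Eya1 and Tfap2b. Within the Alx1 groups Eya1 and Tfap2b were called in neither and Six2 only in cells with Alx1. Foxd1 rose from 4.97 to 49.3 CPM, by 2.52 (1.70 to 3.46) in cells with Alx1 and 2.68 (2.06 to 3.38) in cells without. Of 14 BMP pathway genes none was called. Of 19 tested glycolysis and hypoxia genes 5 were lower, with a list median of -0.56, and 13 were not called. The list's sum went from 12625 to 8109 CPM in members and from 13478 to 6221 in the other cells. Eno1 fell from 2082 to 979 CPM, while Vegfa rose from 3.80 to 23.4. Neither any of 20 S phase genes nor any of 20 G2/M genes was called, and the list medians were -0.25 and -0.28.

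Haemoglobin genes had log2 ratios between the stages from 9.82 for Hba-a2 to 11.63 for Hba-a1, and were not ranked with the rest. The other genes named for the size of their rise were mostly of 2 kinds. Dlx5, Dlx2 and Barx1 belong to subgroup 12. Dlx5 went from 1 to 256 UMIs, a log2 ratio of 6.45 (3.96 to 11.76), and Barx1 from 1 to 223, a ratio of 6.25 (3.76 to 11.56). Alas2 and Slc4a1 are red cell genes, and Mt2, Car2 and Cited4 lead subgroup 15 together with haemoglobin. Cebpb, a leucine zipper factor, was the other. Mt2, a metal-binding protein, had no UMI in members at E9.5 and 1294 a day later, at least 148-fold higher. All 8 erythroid genes were called higher, as were 5 of 5 tested macrophage genes. So were 3 of 7 endothelial genes and 7 of 8 neural crest genes. Genes with almost no UMI at E9.5 reached the minimum of 20 UMIs only through E10.5, so they could only be called higher. Of the 8 macrophage genes, 6 had no UMI in members at E9.5. These counts are therefore a description. In members the summed levels at E9.5 and a day later were 9.49 and 16702 CPM for the erythroid list, 0.438 and 12.8 for macrophages, and 48.05 and 49.1 for endothelium. Without the 22 members that held 1% or more haemoglobin UMIs, the haemoglobin share at E10.5 was 0.499% and Mt2 stood at 19.9 CPM in place of 64.7, while Cebpb kept 11.8. The part of free blood RNA in these values was not tested.

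The 10 genes that fell most were Tpm3-rs7, Myl2, Nr6a1, Arg1, Hoxb1, Lin28a, Prtg, Itm2a, Ifi204 and Adm. Tpm3-rs7 fell from 133 to 4.75 CPM, and by about as much in other cells (123 to 4.13). It is a near copy of Tpm3, and its reads may be shared with that gene. Prtg, a receptor of early mesoderm and neural tissue, fell from 139.9 (131 to 149) to 26.7 (24.5 to 29.1) CPM, and Nr6a1, a nuclear receptor of the early embryo, from 13.9 to 2.25. Arg1, an arginine-cleaving enzyme, fell from 124 to 22.2 CPM in all members, with log2 ratios of -2.74 (-2.97 to -2.51) in cells with Alx1 and -1.84 (-2.15 to -1.53) in cells without. Myl2, a ventricular myosin light chain, went from 20.01 to 3.05 CPM. Its ratio of -2.71 became 0.00863 once the cells with the highest Scrublet scores, 5 of them members of the earlier library, were removed.

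**Figure D4:**
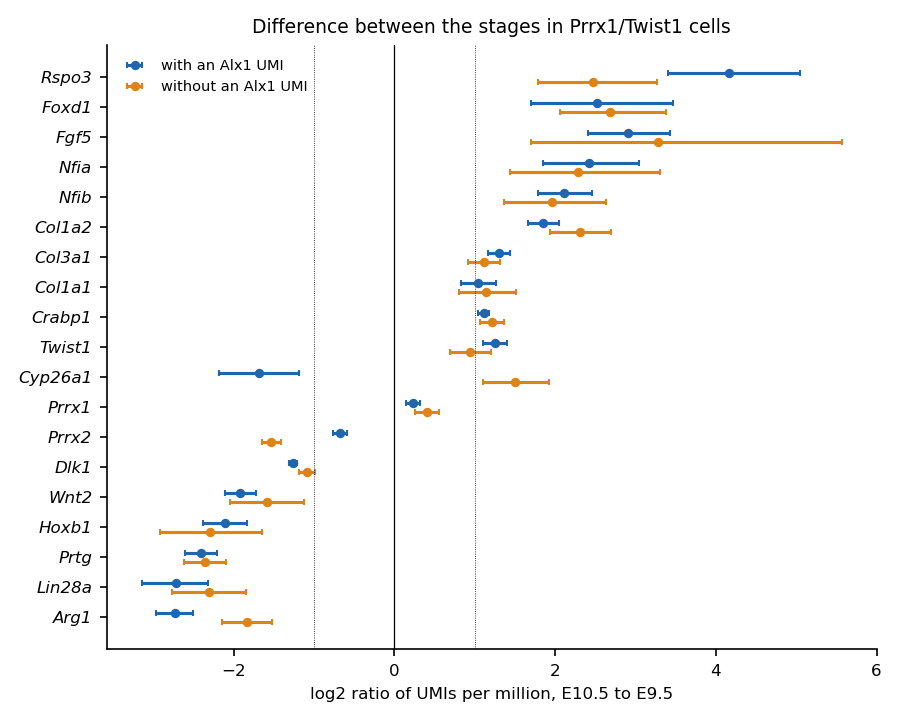
Log2 ratios of CPM, E10.5 to E9.5, for 19 genes in Prrx1/Twist1 cells with (blue) and without (orange) an Alx1 UMI, with exact 95% intervals. Dotted lines mark 2-fold. Collagens, Nfi factors and Rspo3 lie to the right in both groups, Lin28a, Prtg and Hoxb1 to the left in both, and Cyp26a1 at -1.68 and 1.495.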

How the data were processed

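Mesp1-lineage cells of 4 mouse stages were profiled by single-cell RNA sequencing (10x Chromium 3' kit, version 2), with 1 library per stage. The authors aligned reads with Cell Ranger 3.1.0 to mm10, per the labels, and deposited raw UMI counts of 27998 genes for barcodes called as cells, without normalization. Libraries held 2956 to 8070 cells and 74920880 to 168407965 UMIs. Cells with 1000 or more genes and at most 10% mitochondrial UMIs were retained. Doublets were kept, except in an alternative that removed the highest Scrublet scores, 0.8% of cells per 1000 cells.

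Member UMIs were summed per library and scaled to CPM. Ratios have exact conditional binomial intervals (95%), levels Poisson and shares Clopper-Pearson intervals (scipy 1.17.1, Python 3.11.15). A call needed a 2-fold difference and an interval excluding 0, with at least 20 UMIs in members (or 200 in other cells). No p-value was computed, since cells are not replicates. Subgroups came from scanpy 1.11.5 (10000 UMIs per cell, log, 2000 variable genes, 30 components, 15 neighbours, Leiden at resolution 1, seed 0), with leading genes ranked by fold after adding 10 CPM. Ratios and calls were also run on simulated sums that held counting error only, which cannot test variation between cells or libraries.

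Named genes were the rule genes and label markers, up to 6 genes of each list, the 10 largest stage ratios each way with 100 or more UMIs (a sum of 0 was set at 3 UMIs), the 15 highest against other cells with 20 or more CPM in members, and the lowest with 100 or more CPM in other cells. The division by Alx1 and further list genes were chosen after the values were seen. Mitochondrial, haemoglobin and predicted genes were counted but not ranked. Some genes that met these rules are not reported here. Members and all 33 lists were chosen with earlier results of these data known. Coordinates are those of RefSeq (GRCm38.p6), which matched 22856 of 27998 genes by symbol.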

Additional observations from a re-analysis of the deposited data

Results flagged for a closer look

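The difference between Prrx1/Twist1 cells and the other cells of their library turned around between the stages for 8 genes, each at least 2-fold lower in the Prrx1/Twist1 cells at E9.5 and at least 2-fold higher at E10.5. The log2 ratios at E9.5 and E10.5 were Dlx2 -2.75 and 2.50, Fibin -2.24 and 2.14, Mab21l2 -1.70 and 1.03, Corin -1.31 and 1.31, Tcerg1l -1.76 and 1.35, Rspo3 -1.93 and 1.24, Barx1 -6.63 and 1.44, and Pitx1 -2.16 and 1.84. In all, 12824 genes were compared with the other cells, so these 8 are a small part. Each stage has 1 library, so the difference between the stages was not tested. Barx1, Dlx2 and Pitx1 lead subgroup 12 at E10.5, and they rest on 1, 1 and 2 UMIs in members at E9.5, as Fibin does on 2, Tcerg1l on 4 and Corin on 10. Barx1 in the other cells went from 14.4 to 4.10 CPM.

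For 5 genes the difference between the stages had opposite signs in cells with and without an Alx1 UMI, which was not tested either. Between the stages, 12456 genes were compared in members, so these 5 are a small part as well. The log2 ratios of E10.5 to E9.5 with and without Alx1 were Gpc4 2.47 and -1.11, Plvap 1.501 and -1.42, Hapln1 -1.70 and 1.86, March11 2.38 and -1.51, and Cyp26a1 -1.68 and 1.495. Hapln1 leads subgroup 14, which has no Alx1 UMI.

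The same rule also found cells in the libraries outside the comparisons, 8.96% of retained cells at E8.0 (679 cells) and 13.1% at E8.25 (386 cells), which came from another dissection. In these cells Alx1 stood at 32.8 and 31.6 CPM. Hoxc4 stood at 0.495 and 4.98 CPM, and Hoxa5 at 1.92 and 9.004.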

How the results depend on the processing

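The share ratio and the counts of called genes depended on depth, on the count minimum and on the comparison cells. Thinning each cell to 8000 UMIs before the rule, which leaves fewer members and fewer UMIs, gave a log2 share ratio of 1.41, 669 genes higher at E10.5, 43 genes higher and 284 lower than in other cells, and 3 higher and 18 lower with an Alx1 UMI. A minimum of 100 UMIs (1000 in other cells), which tests fewer genes, gave 639 higher and 121 lower at E10.5 and 299 lower than in other cells. Leaving haemoglobin-rich, Cdh5-positive and cardiomyocyte cells out of the other cells gave 53 genes higher and 339 lower. Removal of the highest Scrublet scores gave 62 genes higher than in Hand1 cells in place of 33, and the cause was not tested. Cells without an Alx1 UMI alone, an alternative chosen after the data had been seen and with fewer cells, gave 708 genes higher at E10.5. TMM scaling, totals without abundant genes, other Prrx1 limits, stricter cell filters and removal of the 22 haemoglobin-rich members left the counts they were run on within the interval or a factor of 1.5.

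Of 769 values of single genes under alternatives, 544 lay within the interval reported, 218 moved with the same sign and 7 changed sign. Without the cells of highest Scrublet score, Myl2 had a log2 ratio between the stages of 0.00863. In another alternative, haemoglobin-rich, Cdh5-positive and cardiomyocyte cells were left out of the other cells. The ratios to these other cells at E9.5 and E10.5 were then 0.64 and 1.12 for Actc1 and 0.19 and 0.75 for Tnnt2. At E10.5 they were 0.30 for Myl4 and 0.35 for Acta2. The filter used Tnnt2 and left members as they were, so these signs follow in part from it. No paired analysis was possible because each stage has 1 library. The intervals cover counting error only, and no replicate shows how far embryos or libraries of 1 stage differ.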
